A study of Zea mays with 12 samples.

Results

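nkd1 (naked endosperm1, GRMZM2G129261) and nkd2 (naked endosperm2, GRMZM5G884137) are a pair of duplicate maize genes, and their transcript levels were followed through 12 endosperm libraries. The 2 genes were taken by identifier, as the pair whose mutants the study compared, out of 34348 genes in the files, and both were among the 26706 genes tested. RNA came from whole endosperm of field-grown, self-pollinated W22 plants, collected 16 days after pollination. There were 3 genotypes with 4 libraries each: nkd1-Ds, nkd2-Ds and their wild type (WT), the mutants being named for Ds, a maize transposon that moves only with help from another element. All 12 libraries share the W22 inbred background, the tissue and the age, and no allele carried by every group, WT included, is named in the labels. The series describes the 4 libraries of a genotype as biological replicates and says nothing of ears or plants, so the p-values measure the spread between these libraries.

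NKD1 and NKD2 are transcription factors with zinc fingers of the INDETERMINATE domain type, a family found across plants. In the maize kernel they act in the aleurone, the outermost cell layer of the endosperm, and in the maturation of the starch-storing and protein-storing cells beneath it. The copies come from a duplication of the maize genome and are known to act redundantly: the kernel defect for which the genes are named appears when both are disrupted.

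Values are RPKM, reads per kilobase of gene model, scaled between libraries by authors' factors that do not follow the total reads. The libraries held 35.3 to 48.0 megareads on genes, and replicates within a genotype were further apart than counting noise would put them (8.04 to 85.9 per gene by chi-square), most of all nkd2-Ds replicate 1 against nkd2-Ds replicate 4. In WT, replicates 1 and 2 (8.04) and replicates 3 and 4 (9.38) were closer than the other pairs (24.1 to 30.5). The closest pair in nkd2-Ds was replicates 3 and 4 (10.6). What the libraries of a close pair share is not in the labels, so the 4 libraries may not be equally independent. The 50 most abundant genes took 55.5% to 61.4% of reads in WT, 40.1% to 42.3% in the nkd1-Ds-labelled libraries and 49.8% to 63.0% in nkd2-Ds. Starchy endosperm markers (5 of 7 measured) summed to 32293 to 70291 RPKM over all libraries, as the tissue label has it. Aleurone markers (c1, ole17 and vp1, of 5 listed) summed to 32.2 to 36.3 RPKM in WT, 5.0 to 7.7 RPKM in the nkd1-Ds-labelled libraries and 41.6 to 97.3 RPKM in nkd2-Ds. In the same order of genotypes, embryo markers (3 of 6 measured, led by the oleosin gene ole16) summed to 73.4 to 89.7, 64.1 to 93.5 and 107 to 188 RPKM, and basal transfer layer markers (6 of 11) to 52.9 to 259, 77.2 to 143 and 20.4 to 235 RPKM. Members did not all follow these sums. Embryo marker means were 71.9, 62.0 and 140 RPKM for ole16, 2.64, 6.71 and 3.27 RPKM for lg3, and 6.66, 6.40 and 6.26 RPKM for wox2a. The basal transfer layer gene mrp1 was at means of 1.85, 12.2 and 2.45 RPKM. It was the only 1 of 5 tested markers of that layer called in the nkd1-Ds-labelled libraries. Markers of the embryo-surrounding region (3 of 4) and of green and maternal tissue (3 of 4) summed to at most 19.5 and 2.46 RPKM. None of the measured markers was at 0 in every library of a group.

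In wild-type endosperm both copies were expressed and nkd1 was the more abundant. nkd1 stood at 45.3, 52.1, 52.0 and 47.3 RPKM in WT replicates 1 to 4, a mean of 49.2 ± 3.41 RPKM (SD, n = 4). nkd2 stood at 18.9, 19.1, 20.6 and 19.4 RPKM, a mean of 19.5 ± 0.762 RPKM (SD, n = 4). Every WT library held more nkd1 than nkd2 per length of gene model, and the lowest nkd1 value lay above the highest nkd2 value. By its WT mean nkd1 ranked 1373 and nkd2 ranked 4126 of 34348 genes. The reads behind these levels were 4152 to 5213 per library for nkd1 and 1431 to 1579 for nkd2, so counting error alone would give coefficients of variation of 1.47% and 2.58%. The observed coefficients of variation were 6.93% for nkd1 and 3.91% for nkd2. The recovered gene models were 3216 bases for nkd1 and 2655 bases for nkd2.

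The comparison of each mutant with WT asks first how much transcript of the targeted copy was left. In nkd2-Ds the targeted copy, nkd2, was nearly gone, and nkd1 was moderately lower. In the nkd1-Ds-labelled libraries, nkd1 was reduced but still present, and nkd2, which the label does not name, was as low as in nkd2-Ds. For this reason these are named below by their label, as nkd1-Ds-labelled, and any direction found in them describes endosperm with reduced nkd1 and little nkd2. Whether these plants also carried the nkd2 insertion, or the labels are incomplete, could not be told from the values, and this applies to every difference given for them.

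nkd1 was 14.4, 12.4, 12.2 and 12 RPKM in replicates 1 to 4 of the nkd1-Ds-labelled libraries, a mean of 12.8 ± 1.08 RPKM (SD, n = 4). In nkd2-Ds it was 34.7, 33.3, 37.1 and 35.4 RPKM, a mean of 35.1 ± 1.57 RPKM (SD, n = 4). The 3 genotypes did not overlap for nkd1: WT was highest, nkd2-Ds intermediate and the nkd1-Ds-labelled libraries lowest. Replicate 1 of the nkd1-Ds-labelled libraries was the highest of its group and the other 3 were close together. Residual nkd1 was 26.0% ± 2.2 of the WT mean in the nkd1-Ds-labelled libraries and 71.4% ± 3.19 in nkd2-Ds, where the SD is over the mutant libraries and leaves out the error of the WT mean.

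nkd2 was 1.08, 1.01, 1.14 and 1.19 RPKM in replicates 1 to 4 of the nkd1-Ds-labelled libraries, a mean of 1.10 ± 0.0780 RPKM (SD, n = 4). In nkd2-Ds it was 1.08, 1.25, 1.27 and 0.975 RPKM, a mean of 1.14 ± 0.141 RPKM (SD, n = 4). The range of the nkd1-Ds-labelled libraries lay inside that of nkd2-Ds, and both lay far below the lowest WT library. Residual nkd2 was 5.65% ± 0.400 of the WT mean in the nkd1-Ds-labelled libraries and 5.87% ± 0.721 in nkd2-Ds. It rested on 98 to 123 reads per library in the former and 80 to 97 in the latter. The lowest library, nkd2-Ds replicate 4, had 80 reads with an exact Poisson 95% interval of 63.4 to 99.6 reads. An interval of this kind lies above 0 whenever any read is counted. It therefore cannot show whether the reads came from nkd2 or were shared with nkd1. Such intervals cover counting error only. In both mutants the spread of nkd2 was near that of counting alone, with a coefficient of variation of 7.07% against 9.52% in the nkd1-Ds-labelled libraries and 12.3% against 10.7% in nkd2-Ds.

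**Figure D1:**
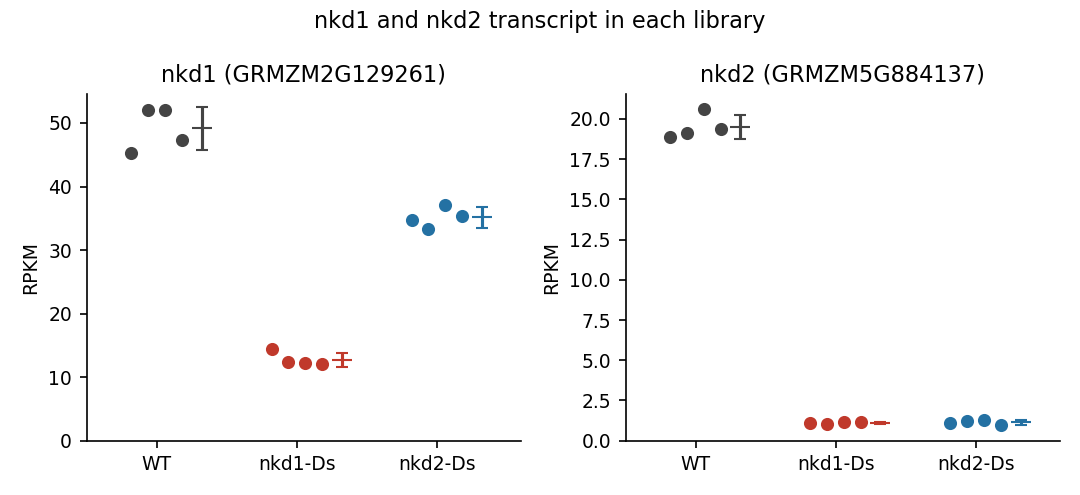
Level in RPKM (vertical axis, from 0) of nkd1 (left) and nkd2 (right) in the 4 libraries of each genotype, each point a library in order of replicate number, with the mean and SD at its right. nkd1 separates the 3 genotypes at means of 49.2, 12.8 and 35.1 RPKM, while nkd2 is near 1.1 RPKM in both mutants and 19.5 RPKM in WT.

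The falls were tested with limma on log2(RPKM + 1) over all 26706 genes, with Benjamini-Hochberg adjustment and a call at adjusted p under 0.05. This scale understates the change of low genes. Both members were called in both mutants, 2 of 2 each time, against a background of 55.7% of tested genes called in the nkd1-Ds-labelled libraries and 25.5% in nkd2-Ds, with 29.2% and 13.6% called lower. The groups did not overlap with WT for either member in either mutant, as for 51.1% and 26.4% of tested genes. nkd1 fell by 1.87 ± 0.0684 (SE) in the nkd1-Ds-labelled libraries (limma adjusted p = 2.31e-10) and fell by 0.47 ± 0.0684 in nkd2-Ds (limma adjusted p = 0.000217). nkd2 fell by 3.29 ± 0.0696 in the nkd1-Ds-labelled libraries (limma adjusted p = 9.55e-13) and fell by 3.26 ± 0.0696 in nkd2-Ds (limma adjusted p = 1.34e-12). Both comparisons use the same WT libraries.

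As folds of mean RPKM, WT held 17.7 times the nkd2 of the nkd1-Ds-labelled libraries and 17.0 times that of nkd2-Ds. For nkd1 the WT mean was 3.85 times that of the nkd1-Ds-labelled libraries and 1.40 times that of nkd2-Ds. Ordered from the most negative log2 difference, nkd2 ranked 34 among 26706 genes in the nkd1-Ds-labelled libraries and 31 in nkd2-Ds. nkd1 ranked 193 and 1706 in the same order. On this scale, which understates the change of low genes, the fall of nkd2 stood near the low end of all genes in both mutants. That of nkd1 stood near it in the nkd1-Ds-labelled libraries. By percent of the WT mean, 228 tested genes (0.854%) were under 10% in the nkd1-Ds-labelled libraries and 155 (0.580%) in nkd2-Ds, nkd2 among them. At least a 2-fold difference with a call was found for 8.54% of tested genes in the nkd1-Ds-labelled libraries and 3.80% in nkd2-Ds. nkd2 met that rule in both mutants and nkd1 in the nkd1-Ds-labelled libraries.

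In a bulk sample, fewer cells of a type and less RNA per cell cannot be told apart, which touches every fall above. The summed aleurone markers were lower in the nkd1-Ds-labelled libraries than in WT and higher in nkd2-Ds, while nkd2 was low in both. The oleosin gene ole17 made up most of that sum, at means of 31.7 RPKM in WT, 5.30 RPKM in the nkd1-Ds-labelled libraries and 68.6 RPKM in nkd2-Ds, and vp1 was at 1.57, 0.857 and 1.64 RPKM; the part of these markers in the levels of nkd1 and nkd2 was not tested. Each value covers a whole gene model, so reads from before and after an insertion cannot be told apart, nor can intact and truncated transcripts. Whether reads shared by the copies, if any, were dropped or assigned, and whether counting used strand, was not given in the sources used here.

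The direct comparison of the mutants asks whether they differ in either transcript. They differed in nkd1 and not measurably in nkd2. nkd1 was 2.75 times higher in nkd2-Ds than in the nkd1-Ds-labelled libraries, a difference of 1.39 ± 0.0684 on the log2 scale (limma adjusted p = 1.05e-08), and the groups did not overlap. In this comparison 41.8% of tested genes were called, 21.6% higher in nkd2-Ds and 4.03% with at least a 2-fold difference, and the groups did not overlap for 37.9%. The nkd2 difference was 0.03 ± 0.0696 (95% interval -0.12 to 0.18, limma adjusted p = 0.787), and with limma voom on the recovered reads it was 0.05 with an interval of -0.22 to 0.31. The intervals allow a difference in residual nkd2 of that size in either direction.

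The ratio of the copies within a library does not depend on how libraries are scaled to each other. It was 2.40, 2.73, 2.52 and 2.44 in WT replicates 1 to 4, a mean of 2.52 ± 0.147 (SD, n = 4). In the nkd1-Ds-labelled libraries it was 13.3, 12.4, 10.7 and 10.2, a mean of 11.6 ± 1.48. In nkd2-Ds it was 32, 26.7, 29.1 and 36.3, a mean of 31.0 ± 4.13. The ratio was lowest in WT and highest in nkd2-Ds in every library, with no overlap between any groups. nkd1 made up 71.6% ± 1.2 of the summed RPKM in WT, 92.0% ± 0.927 in the nkd1-Ds-labelled libraries and 96.8% ± 0.398 in nkd2-Ds.

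The shift towards nkd1 therefore held also in the nkd1-Ds-labelled libraries, where nkd1 itself had fallen but nkd2 had fallen further. On the log2 scale the ratio was higher than in WT by 2.2 ± 0.10 (SE) in the nkd1-Ds-labelled libraries and by 3.62 ± 0.104 in nkd2-Ds, and it was higher in nkd2-Ds than in the nkd1-Ds-labelled libraries by 1.42 ± 0.132. Each of these differences had p = 0.0286 in a two-sided exact permutation test of 4 libraries against 4, the smallest p that 70 arrangements allow, and 0.0286 after Benjamini-Hochberg adjustment over 6 tests. Reads that were assigned to the wrong copy would move these ratios, and their number was not given in the sources used here.

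The summed transcript of the pair gives the combined level of both copies. The sum was 64.2, 71.2, 72.6 and 66.7 RPKM in WT replicates 1 to 4, a mean of 68.7 ± 3.89 RPKM (SD, n = 4). It was 15.4, 13.5, 13.3 and 13.2 RPKM in the nkd1-Ds-labelled libraries, a mean of 13.9 ± 1.05, and 35.8, 34.5, 38.3 and 36.4 RPKM in nkd2-Ds, a mean of 36.3 ± 1.59. The groups did not overlap, and the sum followed the order of nkd1. The WT sum was 4.95 times that of the nkd1-Ds-labelled libraries and 1.89 times that of nkd2-Ds. On the log2 scale the sum fell by 2.31 ± 0.0670 (SE) and fell by 0.92 ± 0.0516 against WT, and was 1.39 ± 0.0615 higher in nkd2-Ds than in the nkd1-Ds-labelled libraries. Each difference had p = 0.0286 by the two-sided exact permutation test, again the smallest it allows, and 0.0286 adjusted over the 6 tests.

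**Figure D2:**
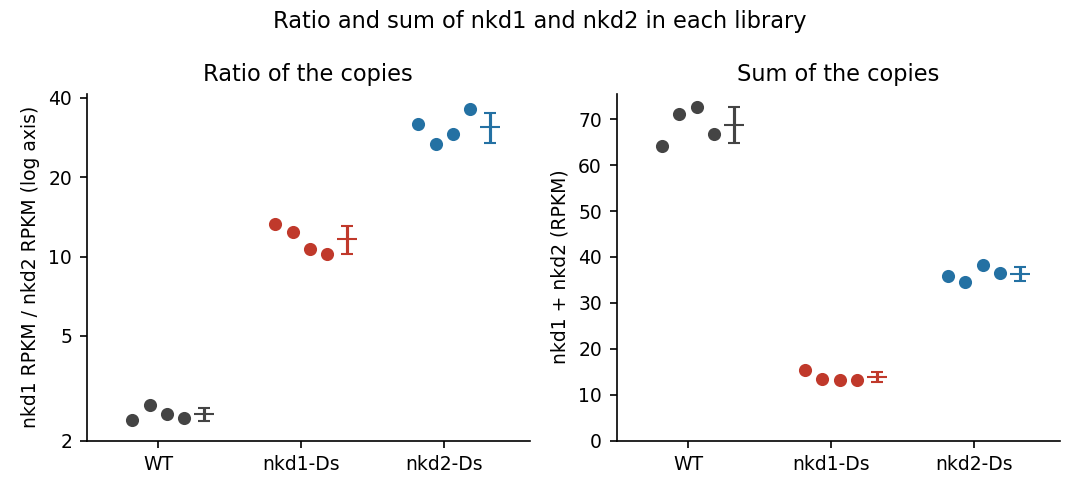
Ratio of nkd1 to nkd2 RPKM on a log axis (left) and their sum in RPKM from 0 (right) in the 4 libraries of each genotype, each point a library, with the mean and SD at its right. The ratio rises from a mean of 2.52 in WT to 11.6 in the nkd1-Ds-labelled libraries and 31.0 in nkd2-Ds, while the sum is 68.7, 13.9 and 36.3 RPKM.

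The size of the nkd1 difference in nkd2-Ds depended on how libraries were scaled, and the other falls kept their calls. The authors' library factors were 27.3 to 31.1 megareads in WT, 34.3 to 40.5 in the nkd1-Ds-labelled libraries and 27.8 to 30.9 in nkd2-Ds, and they do not follow the total reads. When libraries were scaled by total reads instead, nkd1 in nkd2-Ds was 63.8%, 74.0%, 93.3% and 92.4% of the WT mean in replicates 1 to 4. Replicates 3 and 4 then lay inside the WT range of 90.1% to 111%, and replicates 1 and 2 below it. The log2 difference was -0.31 ± 0.118 and was no longer called (limma adjusted p = 0.0848).

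The median of all genes moved by 0.12 under that scaling, and relative to it nkd1 was at -0.43. The 50 most abundant genes took 63.0%, 56.3%, 50.6% and 49.8% of reads in nkd2-Ds replicates 1 to 4, the reverse of the order of nkd1 per total reads except between replicates 3 and 4. The part of this share in the nkd1 difference was not tested. The place of a gene within its own library needs no scaling between libraries. From the most abundant gene down, nkd1 ranked 1276 to 1484 in WT, 1835 to 2106 in nkd2-Ds and 5800 to 6800 in the nkd1-Ds-labelled libraries, with no overlap. The share of all genes whose ranks do not overlap was not worked out. On RPKM, 26.4% of tested genes did not overlap between nkd2-Ds and WT, and 51.1% between the nkd1-Ds-labelled libraries and WT. The ranks of nkd1 are therefore a description. nkd2 ranked 3845 to 4301 in WT, 23417 to 24353 in the nkd1-Ds-labelled libraries and 23181 to 24853 in nkd2-Ds, where the mutants overlapped.

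In the nkd1-Ds-labelled libraries, total-reads scaling put residual nkd1 at 37.8% ± 1.92 and residual nkd2 at 8.28% ± 0.831 of the WT mean. Both falls were called there too, at log2 differences of -1.34 ± 0.118 (limma adjusted p = 1.56e-07) and -2.89 ± 0.107 (limma adjusted p = 7.83e-12). The median of all genes moved by 0.43 in this comparison, and relative to it the members stood at -1.77 and -3.32. Residual nkd2 in nkd2-Ds was 6.62% ± 1.28 of the WT mean, and its direct difference between the mutants was -0.18 ± 0.107 (limma adjusted p = 0.166).

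**Figure D3:**
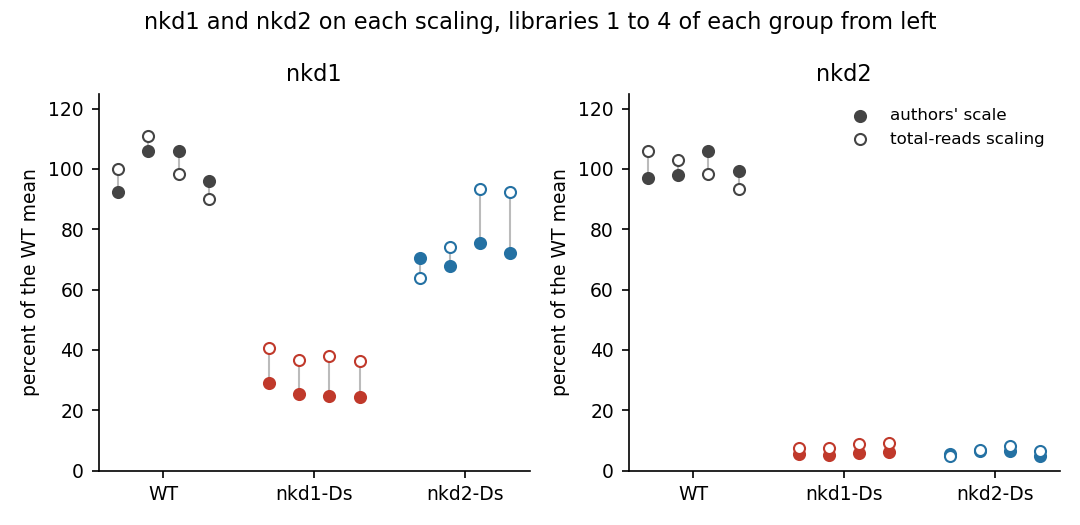
nkd1 (left) and nkd2 (right) as percent of the WT mean in each library, on the authors' scale (filled points) and with libraries scaled by total reads (open points), a grey line joining the points of a library and replicates 1 to 4 running from left in each genotype. In nkd2-Ds the scalings spread nkd1 from 63.8% to 93.3% with total reads against 67.7% to 75.4% on the authors' scale, while nkd2 stays under 10% of WT in every mutant library on both.

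Genes next to the members in the reference order were compared as the surroundings of each insertion. The nkd1 locus lies on chromosome 2 and the nkd2 locus on chromosome 10 in the RefSeq table of assembly Zm-B73-REFERENCE-NAM-5.0, which was used only for names and order. It placed 15236 of the 34348 identifiers, so unplaced genes may lie between those counted. Of the 20 placed and measured genes nearest each member, 10 on either side, 14 were tested around nkd1 and 17 around nkd2.

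Around nkd2 a larger share of neighbours than of all tested genes was called in each mutant. In the nkd1-Ds-labelled libraries 13 of 17 were called (76.5%, against 55.7% of all tested genes), 7 higher and 6 lower, and in nkd2-Ds 10 of 17 were called (58.8%, against 25.5%), 6 higher and 4 lower. Over all 26706 tested genes the calls were 7077 higher and 7800 lower in the nkd1-Ds-labelled libraries, and 3199 higher and 3624 lower in nkd2-Ds. That near balance belongs to the authors' scale: with total-reads scaling the calls were 16626 higher and 2018 lower in the nkd1-Ds-labelled libraries, and 3279 higher and 1247 lower in nkd2-Ds. The calls stood mostly on 1 side: all 8 tested genes before nkd2 in this order were called in the nkd1-Ds-labelled libraries and 7 of 8 in nkd2-Ds, while of 9 after it 5 and 3 were called. With 5 genes on either side 5 and 4 of 8 were called, and with 20 genes 21 and 14 of 30. The median absolute log2 difference of the 17 neighbours was 0.44 in the nkd1-Ds-labelled libraries and 0.28 in nkd2-Ds, where all tested genes had 0.29 and 0.16. Between the mutants 7 of 17 were called (41.2%, against 41.8%). These are counts of neighbours that share a chromosome segment, with no test of the excess.

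The neighbours of nkd2 that changed most, by the largest log2 difference from WT in either mutant, are given as means of 4 libraries. GRMZM2G017414, the second gene before nkd2, was 0.525 ± 0.0792 RPKM in WT, 5.44 ± 0.998 RPKM in the nkd1-Ds-labelled libraries and 4.86 ± 0.571 RPKM in nkd2-Ds. GRMZM6G798998, the sixth, was 10.2 ± 0.861, 22.1 ± 3.45 and 20.8 ± 1.65 RPKM. Both genes rose in both mutants, and limma called neither between the mutants (adjusted p = 0.373 and adjusted p = 0.574). With total-reads scaling both were called lower in nkd2-Ds (-0.45 and -0.44), where the median of all genes was at -0.30.

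GRMZM2G414915, the eighth gene before nkd2, was 1.68 ± 0.174 RPKM in WT, 11.7 ± 1.30 RPKM in the nkd1-Ds-labelled libraries and 2.81 ± 0.596 RPKM in nkd2-Ds. GRMZM2G301485, the fourth, was 0.358 ± 0.197, 1.86 ± 0.462 and 1.2 ± 0.408 RPKM. The tenth gene after nkd2 is r1, whose bHLH protein switches on anthocyanin genes, at 0.0690 ± 0.0484, 21.1 ± 0.328 and 7.87 ± 3.18 RPKM. All 3 genes rose in both mutants. GRMZM2G414915 and r1 rose more in the nkd1-Ds-labelled libraries, with limma adjusted p = 1.74e-07 and adjusted p = 0.000267 for the direct differences. For GRMZM2G301485 the direct difference had limma adjusted p = 0.0464, and was not called with the replicate block (0.0793), a pseudocount of 0.1 (0.0939) or only the 8 samples compared (0.0616). hyd3, a beta-carotene hydroxylase gene, is the 14th placed and measured gene before nkd2, outside the 10 but within 20.

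Around nkd1 the share of neighbours called was near that of all tested genes in the nkd1-Ds-labelled libraries. There 8 of 14 tested neighbours were called (57.1%, against 55.7%), 3 higher and 5 lower. In nkd2-Ds limma called 0 of 14, with 3 at an unadjusted p under 0.05 and 0 called by limma voom on the recovered reads, against 25.5% of all tested genes. Without WT replicate 2 it called 1. With 20 genes on either side limma called 3 of 27 in nkd2-Ds (11.1%). Between the mutants 9 of 14 were called (64.3%, against 41.8%).

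The neighbours of nkd1 with the largest differences were GRMZM2G095892, the sixth gene before it, and GRMZM6G303298, the third. GRMZM2G095892 was 15.5 ± 1.33 RPKM in WT, 6.46 ± 1.02 RPKM in the nkd1-Ds-labelled libraries and 15.8 ± 1.65 RPKM in nkd2-Ds. GRMZM6G303298 was 3.73 ± 0.517, 1.45 ± 0.110 and 3.59 ± 0.602 RPKM. Both fell in the nkd1-Ds-labelled libraries, by 1.15 ± 0.101 and 0.95 ± 0.103 on the log2 scale (limma adjusted p = 8.53e-07 and adjusted p = 5.50e-06). GRMZM2G142664, the sixth gene after nkd1, rose there by 0.64 ± 0.0930. GRMZM2G101383 was at -0.48 ± 0.0723, a call lost with total-reads scaling (limma adjusted p = 0.429), and GRMZM2G101408 rose by 0.40 ± 0.0725.

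**Figure D4:**
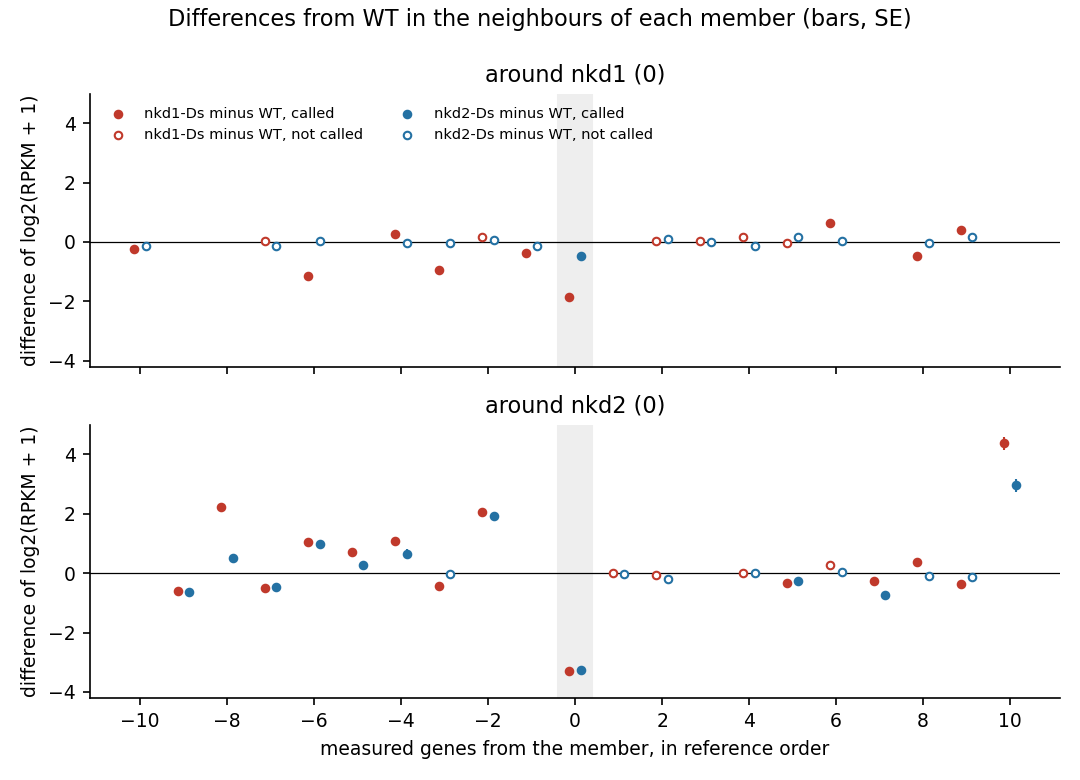
Difference of log2(RPKM + 1) from WT (vertical axis, bars SE) for the tested genes within 10 placed and measured genes of nkd1 (top) and nkd2 (bottom), in reference order, with the member at 0; red is the nkd1-Ds-labelled libraries, blue nkd2-Ds, and filled points are called. Before nkd2 the called differences run through both mutants, while around nkd1 none of the 14 neighbours is called in nkd2-Ds.

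Genes whose level followed a member over the 12 libraries were ranked by Pearson's r of log2(RPKM + 1). The libraries fall into 3 genotypes, so r mostly reflects the group means and is given as a description. The genes with a symbol most like nkd1 were SnRK2.5 (a SNF1-related protein kinase gene, r = 0.992), cat2 (a catalase gene, 0.989), bHLH159 (0.986), x1 (0.984) and HP3 (0.983), all n = 12. SnRK2.5 was 20.1 to 22.3 RPKM in WT, 3.40 to 4.41 RPKM in the nkd1-Ds-labelled libraries and 14.9 to 16.5 RPKM in nkd2-Ds, the same order of genotypes as nkd1 with no overlap. In nkd2-Ds the main limma fit called SnRK2.5 and cat2 lower than in WT (adjusted p = 0.00132 and adjusted p = 0.00979). Both calls were lost with total-reads scaling (limma adjusted p = 0.140 and adjusted p = 0.174), as was that of nkd1. bHLH159, x1 and HP3 were not called there by the main fit (limma adjusted p = 0.0510, 0.0510 and 0.184). In all, 378 tested genes had r over 0.95 with nkd1.

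The genes with a symbol most like nkd2 were hyd3 (r = 0.992), lrk1 (0.990), HO1 (0.979) and a pair of PDIL5-1 gene models (protein disulfide isomerase-like, both 0.974), all n = 12. hyd3 was 81.4 to 94.4 RPKM in WT, 7.64 to 9.54 RPKM in the nkd1-Ds-labelled libraries and 5.52 to 7.94 RPKM in nkd2-Ds. As for nkd2, the mutants overlapped and lay far below WT, although hyd3 was called lower in nkd2-Ds than in the nkd1-Ds-labelled libraries, at -0.28 ± 0.0946 on the log2 scale (limma adjusted p = 0.0305, 0.0622 with the replicate block and 0.0590 with only the 8 samples compared). lrk1 was 2.61 to 4.60 RPKM in WT, at most 0.0121 RPKM in the nkd1-Ds-labelled libraries and at most 0.0671 RPKM in nkd2-Ds. Of tested genes, 331 had r over 0.95 and 143 over 0.98 with nkd2.

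Of the 143 genes with r over 0.98, 96 were under 10% of their WT mean in both mutants, as nkd2 was. Over all tested genes the number was 120 (0.449%). Genes picked for following nkd2 are lower in both mutants than in WT by that choice. The counts are therefore a description and cannot test an enrichment. The identifiers of 118 of the 143 (82.5%) were not matched to a RefSeq entry, against 53.0% for tested genes. Of the 25 that were matched, 10 were on chromosome 10, which holds 6.70% of placed tested genes, and 1 of those 10 lay within 20 placed and measured genes of nkd2. Most genes with the pattern of nkd2 could thus not be placed, and several of those placed lay elsewhere on its chromosome.

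Once group means were subtracted, the likeness fell. The highest r of any tested gene was then 0.944 with nkd1 and 0.907 with nkd2, over 12 libraries, and nkd1 and nkd2 had r = 0.0498 with each other. Each highest value comes from a search of 26706 tested genes. How high unrelated genes would reach in such a search was not worked out, so the genes named next are a description. The genes with a symbol at the top of these lists were bZIP58 (0.892), Rcd1L4, WRKY1, sam2 and ARF23 for nkd1, and rmr7 (0.842), clt1-1, knox7, MIS12-1 and ACK2 for nkd2. None of these was among the genes most like the members before subtraction.

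**Figure D5:**
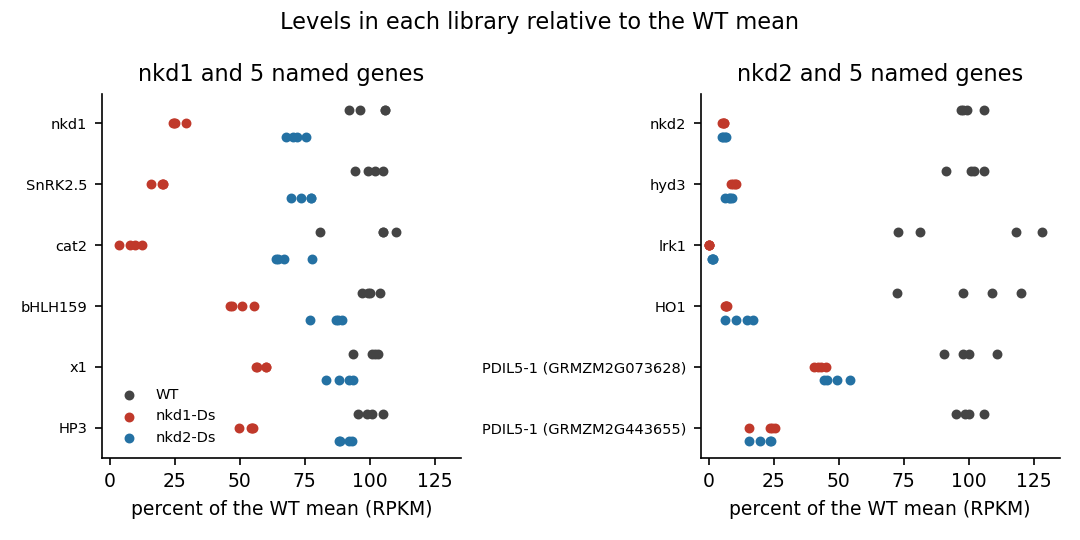
Level in each library as percent of that gene's WT mean (horizontal axis) for nkd1 and the 5 genes with a symbol most like it (left) and for nkd2 and its 5 (right); each point is a library, coloured by genotype. The genes on the left keep the mean of nkd2-Ds between WT and the nkd1-Ds-labelled libraries, and those on the right are low in both mutants.

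Other regulators of aleurone cell fate and differentiation, and of endosperm maturation, were read beside the pair, from lists that take their members by known role. Of 7 tested aleurone regulators, 3 were called higher and 2 lower in the nkd1-Ds-labelled libraries, and 2 higher and 0 lower in nkd2-Ds. These counts, 5 and 2 of 7, are near the 55.7% and 25.5% of all tested genes. Their median log2 difference was 0.08 and 0.16, against -0.02 and -0.01 over all genes. With total-reads scaling, 5 were higher and 0 lower in the nkd1-Ds-labelled libraries, where 16626 of 27037 tested genes were called higher and 2018 lower. Besides r1, ocl1 (a homeobox gene of the outer cell layer) rose by 0.75 ± 0.113 there (limma adjusted p = 9.62e-05), and dek1, a calpain needed for aleurone fate, rose by 0.43 ± 0.0882. vp1, the B3 factor of seed maturation, and c1, the MYB partner of r1, fell by 0.47 ± 0.141 and 0.41 ± 0.117, calls lost with total-reads scaling (limma adjusted p = 0.365 and adjusted p = 0.0806). In nkd2-Ds the 2 called higher were r1, also counted among the neighbours of nkd2, and c1, which rose by 0.45 ± 0.117. There vp1 was at 0.02 ± 0.141, and neither dek1 nor ocl1 was called (limma adjusted p = 0.101 and adjusted p = 0.326). cr4, a receptor kinase gene of the aleurone, and sal1 were called in neither mutant, at 0.08 and -0.08 in the nkd1-Ds-labelled libraries. With total-reads scaling both were called higher there (0.42 and 0.45), near the median of all genes (0.43).

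Of 7 tested gene models of endosperm transcription factors, 3 were called higher and 2 lower in the nkd1-Ds-labelled libraries, and 1 higher and 1 lower in nkd2-Ds, again 5 and 2 of 7 and near the 55.7% and 25.5% of all tested genes. vp1, 1 of the 2 called lower, is counted in both regulator lists, and vp1 and c1 are also aleurone markers above. The lists are therefore not independent. ohp2 and mads47 rose in the nkd1-Ds-labelled libraries by 0.34 ± 0.0679 and 0.35 ± 0.0968, and neither was called in nkd2-Ds. o2, the bZIP activator Opaque2, rose by 0.49 ± 0.102 and 0.40 ± 0.102 in the respective mutants (limma adjusted p = 0.00117 and adjusted p = 0.0110). pbf1 (GRMZM2G146283), for the factor that binds the prolamin box of zein promoters, fell by 0.94 ± 0.0820 and 0.50 ± 0.0820. A 2nd model named pbf1 (GRMZM2G146267) was at 0.08 and 0.16 and not called. With total-reads scaling it was called higher in the nkd1-Ds-labelled libraries (0.59), where the median of all genes was at 0.43. Reads may be split between the models. The falls of nkd1 and nkd2 in the nkd1-Ds-labelled libraries exceeded those of every regulator tested in these lists. On log2(RPKM + 1) a gene of low WT level cannot fall that far, as for c1 and vp1 at WT means of 0.648 and 1.57 RPKM. For such genes the outcome was fixed in advance. Other members of the INDETERMINATE domain family were not analysed here.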

How the data were processed

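Whole-endosperm RNA of 12 samples was sequenced from polyadenylated, stranded libraries, per the labels' protocols. Per the submitters' processing notes, the tools were Cufflinks 2.2.1, TopHat2 2.1.1, featureCounts and FastQC, whose roles are unstated. The genome build, annotation and strand setting were not given in the sources used here. The deposited values are RPKM, as the authors scaled them, judged from the values since the headers name only the sample; 0 other columns were present. Groups and replicate numbers came from the labels.

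Whole reads, gene model lengths and library factors were recovered from the steps of the RPKM values for 34307 of 34307 genes above 0 (tolerance 1e-05 reads), and for 0 of 500 control genes shifted at random; 41 genes were 0 throughout. Poisson 95% intervals on reads cover counting error only.

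The main test was limma 3.58.1 (R 4.3.3) fitted to log2(RPKM + 1) of all 12 samples, with a trended prior and genotype as the only factor. It took the 26706 genes whose mean reached 1 RPKM in some group, and called those under 0.05 after Benjamini-Hochberg adjustment. It was tried on simulated data in which far fewer genes changed than were called here, so that trial does not show its accuracy in these data. Ratios and sums were compared by exact permutation tests over samples, Python 3.11.15. Alternatives were a pseudocount of 0.1, no filter, total-reads scaling, quantile normalization, only the 8 samples compared, voom on recovered reads, a replicate block and each replicate left out.

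The members, lists and tests were chosen with earlier results of these data known. Genes were named by rule: both members in every library, list members with the largest differences, the 5 genes with a symbol most like each member, and the 5 largest differences among 10 placed genes on either side. Symbols and order came from RefSeq, with no coordinates used. No sequence of the members was used here.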

Additional observations from a re-analysis of the deposited data

Results flagged for a closer look

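In groups of 4 libraries, a library was marked when its gap to the nearest other library exceeded 0.829 of the group's range (Dixon's 95% value). Chance marks about 1 in 20 groups, and 8 of 114 groups of the members and named genes were marked. The sum of nkd1 and nkd2 was 15.4 RPKM in replicate 1 of the nkd1-Ds-labelled libraries, apart from 13.2 to 13.5 RPKM in the others. nkd1 alone came just under the limit there, at 0.823 of the range, and no other group of nkd1, nkd2 or their ratio was marked. Among the genes most like nkd1, SnRK2.5 was low in replicate 3 of the nkd1-Ds-labelled libraries (3.40 RPKM), HP3 was low in the same library (2.29 RPKM), and cat2 was low in WT replicate 4 (2.80 RPKM). Of the neighbours, GRMZM2G095892 was low in WT replicate 4 (13.5 RPKM) and GRMZM2G301485 high in nkd2-Ds replicate 3 (1.77 RPKM). Of the regulators, dek1 was low in WT replicate 3 (11.4 RPKM) and ohp1 high in WT replicate 2 (5.97 RPKM).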

How the results depend on the processing

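Leaving out any 1 library kept every call of nkd1 and nkd2 by limma and moved their log2 differences little. Total-reads scaling changed most. It ended the nkd1 call in nkd2-Ds (-0.31), put the residual levels at 37.8% and 80.9% of WT for nkd1 and 8.28% and 6.62% for nkd2, and moved the genes called in nkd2-Ds from 6823 to 4526. Calls in the nkd1-Ds-labelled libraries went from 7077 higher and 7800 lower to 16626 and 2018, and between the mutants from 5759 and 5398 to 1433 and 12715. It also reversed sal1 (0.45 in the nkd1-Ds-labelled libraries and -0.27 between the mutants), ohp1 (0.37) and pbf1 GRMZM2G146267 (-0.29 between the mutants). None of these was called on the authors' scale. Under that scaling the median of all genes was at 0.43 in the nkd1-Ds-labelled libraries and -0.30 between the mutants. The cause of the reversals was not tested. The labels do not say whether libraries with the same replicate number share anything else. Deviations of same-numbered libraries had correlations of -0.28 to 0.12, which does not settle it. With the replicate block every limma call of the members held (nkd1 in nkd2-Ds adjusted p = 0.00163). By sign flips within the numbers the exact p was 0.125 for the ratios (2.2, 3.62 and 1.42) and the sums (-2.31, -0.92 and 1.39), the smallest that 4 pairs allow. Of the 5 genes most like each member, Spearman's rho kept 0 and 0, and total-reads scaling 2 and 3.

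Leave-one-out ranges follow. nkd1 differed by -1.92 to -1.84 in the nkd1-Ds-labelled libraries, by -0.51 to -0.44 in nkd2-Ds and by 1.37 to 1.45 between the mutants, and nkd2 by -3.30 to -3.26, by -3.29 to -3.22 and by 0.00 to 0.07. The log2 ratio gave 2.13 to 2.26, 3.54 to 3.68 and 1.34 to 1.48, and the log2 sum -2.36 to -2.28, -0.95 to -0.89 and 1.36 to 1.44; 3 libraries against 4 allow no exact p below 0.0571. Calls among the neighbours of nkd1 in nkd2-Ds were 0 to 1.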
